A study of Mus musculus with 7 samples.

Results

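The genes of 8 cell-surface glycoproteins that serve homing to the marrow and adhesion to its niche were followed: Cxcr4, Itga4, Itga6, Itgb1, Itgal, Selplg, Cd44 and Esam. They were taken by symbol from a list and not by a cut on their values, though earlier results of these data were known when they were chosen. All 8 were found among the 32285 genes counted in each library. Transcripts were counted in single bone marrow cells of mice, sorted as LSK, the lineage-negative fraction with Sca-1 and cKit on the surface that holds the stem cells and multipotent progenitors of blood. There were 3 libraries labelled B4galt1 KO, of the genotype 129S1/C57Bl/6, B4-/-, and 4 labelled WT, of the genotype 129S1/C57Bl/6. The design text calls the mutation a full knockout, so it is not limited to blood cells. No treatment or age is given, and no label says whether each library came from a separate mouse, so p-values measure the spread between libraries, which may be technical. The libraries are called KO 1 to 3 and WT 1 to 4 after their labels.

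Homing of blood stem cells runs through chemokine receptors, selectin ligands and integrins, used one after another on the vessel wall and then in the marrow. CXCR4 answers CXCL12 from stromal cells, PSGL-1 (encoded by Selplg) and CD44 can bind selectins, and integrins hold the cell to VCAM-1, ICAM-1, fibronectin and laminin. All are glycosylated, and the product of B4galt1 is a galactosyltransferase that extends the sugar chains of such proteins. The series title asks about glycosylation and the megakaryocytic fate of stem cells. The counts are of RNA: neither surface protein nor sugar chains were measured.

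For 4 of the 8 genes a promoter window was at hand in RefSeq (GRCm38.p6). Those of Cxcr4 and Cd44, which rose together in Dntt-gated cells, and of Itgb1, which fell there, are shown as the 250 bases before the annotated start. Capitals mark any of 3 motifs, read on both strands, where overlapping matches run together. The motifs are GGGCGG of the GC box, TATAAA of the TATA box and the Runx core TGTGGT. The E-box CACGTG was also searched, and none of these windows held it. The Cxcr4 window is chr1:128592300-128592549 on the minus strand, the Cd44 window chr2:102901666-102901915 on the minus strand, and the Itgb1 window chr8:128685404-128685653 on the plus strand.
Cxcr4: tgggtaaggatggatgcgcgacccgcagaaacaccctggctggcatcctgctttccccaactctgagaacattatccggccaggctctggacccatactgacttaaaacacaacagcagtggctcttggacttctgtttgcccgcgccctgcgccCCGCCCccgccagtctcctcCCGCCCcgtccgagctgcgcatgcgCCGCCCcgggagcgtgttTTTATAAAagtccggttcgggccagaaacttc
Cd44: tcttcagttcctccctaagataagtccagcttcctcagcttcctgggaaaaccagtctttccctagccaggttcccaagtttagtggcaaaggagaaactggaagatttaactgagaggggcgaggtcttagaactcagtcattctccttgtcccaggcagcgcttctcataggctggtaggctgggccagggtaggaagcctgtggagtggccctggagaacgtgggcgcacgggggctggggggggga
Itgb1: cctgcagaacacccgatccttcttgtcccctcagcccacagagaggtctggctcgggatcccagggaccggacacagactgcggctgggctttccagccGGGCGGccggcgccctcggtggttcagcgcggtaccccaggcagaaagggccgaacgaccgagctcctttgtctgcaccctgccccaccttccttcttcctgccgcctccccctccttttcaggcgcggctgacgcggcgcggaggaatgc
The Cxcr4 window held 3 GGGCGG matches and, close to the start, 2 overlapping TATAAA matches on opposite strands. The Itgb1 window held 1 GGGCGG match, and the Cd44 window none of the letters searched. Of all 32851 windows of this length in the table, 32.7% held GGGCGG, 12.4% TATAAA, 14.0% TGTGGT and 6.02% CACGTG. The GC share was 61.2% in the Cxcr4 window, 56.4% in that of Cd44 and 68.0% in that of Itgb1, against a median of 52.4% over all windows. A match describes the letters only.

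After filtering, 24430 cells remained, from 1172 to 8862 per library, with 12681440 to 89268502 UMIs (counted molecules). The libraries fell into 2 lists by the opening bases of their barcodes: KO 3 and WT 4 formed list B, the other 5 libraries list A. In list B 96.2% to 98.3% of barcodes passed the filter and ribosomal protein genes took 30.0% to 30.2% of UMIs, against 32.4% to 49.9% and 13.7% to 20.8% in list A. KO 3 and WT 4 shared 68 cell barcodes among their kept cells, and no other pair shared more than 2. B4galt1 (chromosome 4, 40804602 to 40854005, minus strand) stood at 53.2, 53.1 and 31.8 CPM (UMI counts scaled to the total of the library) in the libraries labelled KO and at 54.1, 60.8, 52.1 and 39.5 in those labelled WT. The groups overlapped, with a log2 fold change of -0.14 (SE 0.12, adjusted p 0.537 by edgeR). The kit reads the 3′ end of transcripts and the deleted part is not given in the labels, so this does not check the labels, and "KO" and "WT" stand for labels throughout. Of the sort genes, Kit was counted at 137 to 311 CPM and Ly6a, which encodes Sca-1, at 16.6 to 48.2 CPM in the libraries.

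Cells were assigned to states by marker genes that are not among the 8. The stem gate asked for at least 3 of 8 stem cell genes such as Hlf, Procr and Mecom. The Flt3 gate asked for at least 2 UMIs of Flt3 and none of Dntt (multipotent progenitors leaving the stem cell state). The Dntt gate asked for at least 2 UMIs of Dntt, the early lymphoid enzyme that extends V(D)J joints. The granule gate asked for at least 3 of 5 genes, among them Mpo and Elane of neutrophil granules, with at least 10 UMIs. Further gates marked megakaryocyte (at least 3 of 8 genes) and erythroid cells (at least 2 of 6 genes). Others marked late neutrophil, T or NK, B, dendritic or monocytic, and basophil or mast cells. A cell that met only 1 of all these gates took its state. Those that met only the stem and Flt3 gates, or only the granule and Flt3 gates, were added as states of their own. There were 5854 stem-gated, 2968 stem+Flt3-gated, 1399 Flt3-gated, 2080 Dntt-gated, 1412 granule+Flt3-gated and 1724 granule-gated cells. The smallest library sums held 36 Flt3-gated cells (WT 2), 63 Dntt-gated cells (KO 2) and 20 granule+Flt3-gated cells (WT 3). Granule-gated cells were compared in 6 libraries, since WT 3 had only 19. UMIs were summed over the cells of a state in each library, and CPM is given on these sums. Fewer cells of a type and less RNA per cell cannot be told apart within the sums over all cells.

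**Figure D1:**
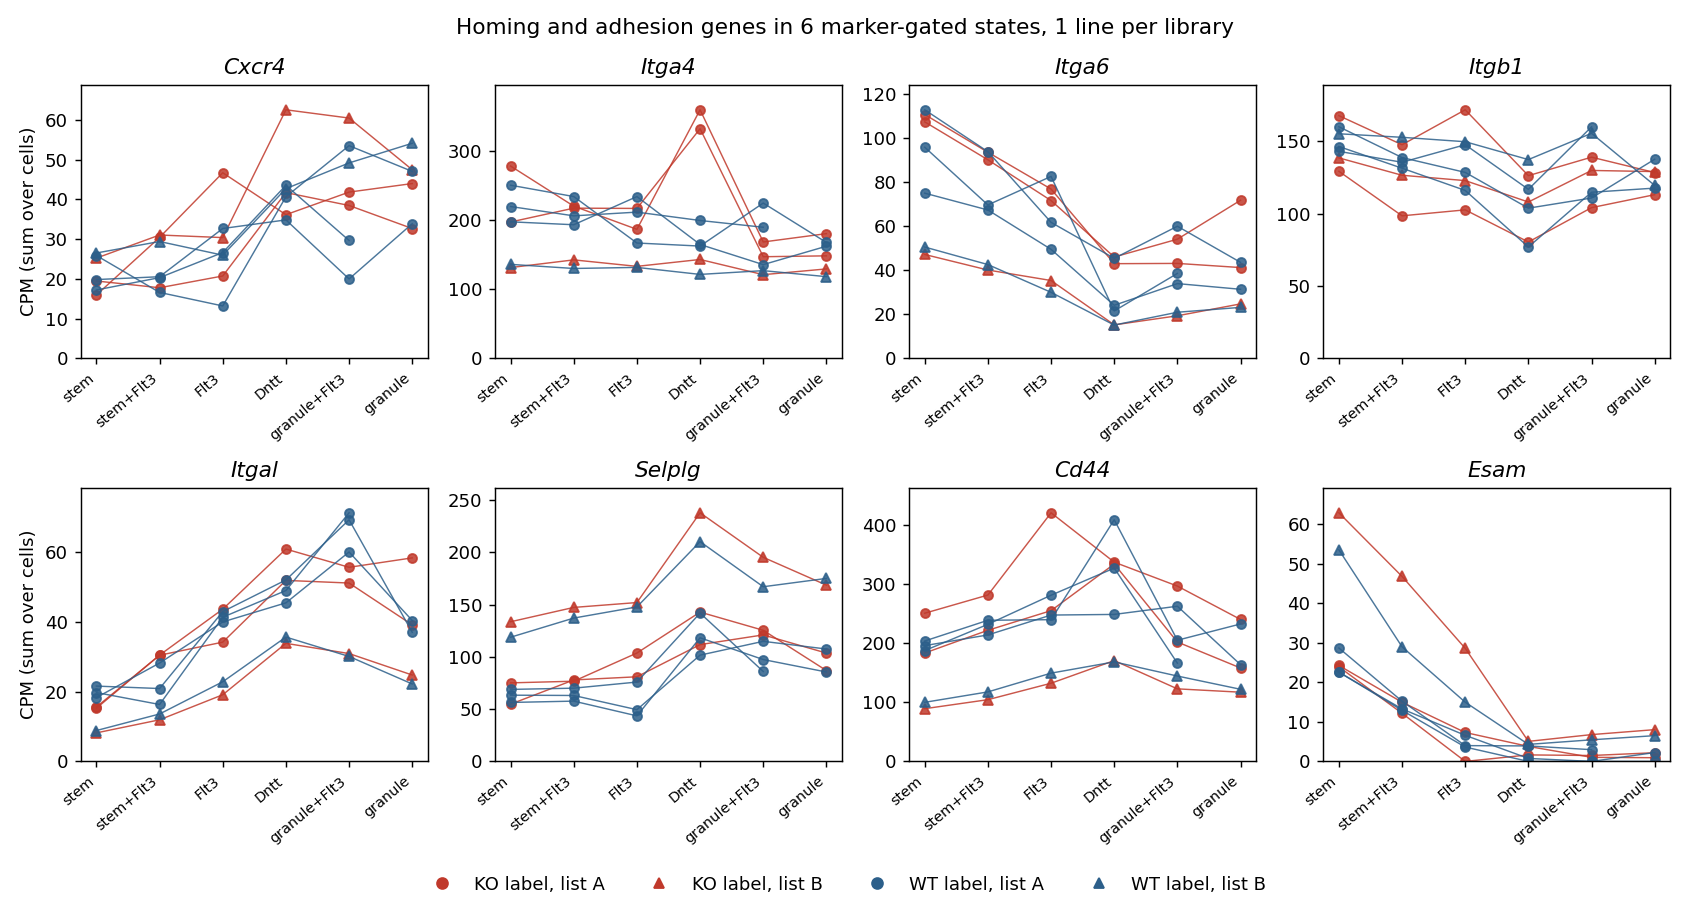
CPM of each gene (y axis, from 0) in 6 marker-gated states (x axis), with 1 line per library, coloured by label and shaped by barcode list. In each of the 7 libraries Esam and Itga6 are highest in stem-gated cells. In stem-gated cells the triangles of list B stand apart in 6 of the 8 panels.

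Of the 8 genes, 7 parted into those of the stem-gated state and those of the Dntt-gated state. Esam, Itga6 and Itgb1 were lower in Dntt-gated than in stem-gated cells, Itgal, Cxcr4, Selplg and Cd44 were higher, and Itga4 did not differ by the test. That makes 7 of 8 genes past the threshold (edgeR quasi-likelihood test with the library as a block, Benjamini-Hochberg adjusted p below 0.05), where 44.3% of the 11401 genes tested passed it. In Flt3-gated against stem-gated cells 5 of 8 passed, against 12.6% of all genes. With stricter gates and also with thinned cells 7 of 8 passed, where Cxcr4 and Itga4 were added. More of all genes also passed under both of these settings, so the 12.6% is not their background. The median log2 fold change of the 8 genes was 0.38 for Dntt-gated and 0.07 for Flt3-gated cells, beside 0.02 and 0.00 over all genes tested.

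Esam (chromosome 9, 37528078 to 37538319, plus strand) encodes an immunoglobulin-family protein of cell junctions that marks mouse blood stem cells. It spanned 22.5, 24.3 and 62.9 CPM (lowest, median and highest of 7 libraries) in stem-gated cells and 12.2, 15.0 and 46.8 CPM in stem+Flt3-gated cells. In Flt3-gated cells it spanned 0, 6.59 and 28.6 CPM, and in Dntt-gated cells 0, 3.79 and 5.07 CPM. Every library held less Esam in each of these states than in its own stem-gated cells, and the Dntt-gated values lay below all stem-gated ones. From stem-gated cells its log2 fold change was -1.62 in Flt3-gated cells (SE 0.15, adjusted p 2.21e-11 by edgeR) and -3.57 in Dntt-gated cells (SE 0.17, adjusted p 1.02e-22 by edgeR). It was -0.77 in stem+Flt3-gated cells (SE 0.13, adjusted p 0.000148 by edgeR), where DESeq2 gave an adjusted p of 0.0689. Dntt-gated cells of all libraries held 71 Esam UMIs, and those of WT 2 none, so their level is not known closely. Granule-gated cells held 93 Esam UMIs, with a log2 fold change of -3.48 (SE 0.19, adjusted p 3.65e-21 by edgeR). In the order of states, stem-gated, stem+Flt3-gated, Flt3-gated and granule-gated cells each differed from the next, while the granule-gated, Dntt-gated and granule+Flt3-gated states did not differ from their neighbours by the test.

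Esam is also a gene of endothelial cells, so their markers were read in the same cells. Of the 8 endothelial genes, Cdh5, which defines the endothelial junction, reached at most 0.123 CPM in any library, Cldn5 at most 1.84 CPM, Plvap at most 0.71 CPM and Stab2 at most 0.751 CPM. Flt1 (0.750 to 5.41 CPM) and Kdr (0.232 to 3.67 CPM), which encode VEGF receptors of endothelium, were counted in every library at low levels. Egfl7 (52.2 to 208 CPM) and Emcn (7.12 to 33.9 CPM) were counted in every library, and both are also known in blood stem cells. The list summed to 66.2 to 190 CPM in libraries labelled KO and to 112 to 247 CPM in those labelled WT.

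The integrin genes did not move as one. Integrins are pairs of an alpha and a beta chain, and Itga4 and Itga6 products pair with that of Itgb1, the Itgal product with that of Itgb2. Itga6 (chromosome 2, 71745616 to 71858416, plus strand), the laminin-binding alpha chain, spanned 47.1, 95.8 and 113 CPM in stem-gated, 30.0, 61.7 and 82.5 CPM in Flt3-gated and 15.1, 24.1 and 46.0 CPM in Dntt-gated cells. All 7 libraries followed this order, and the stem-gated values lay above all Dntt-gated ones. Against stem-gated cells the log2 fold change was -0.53 in Flt3-gated (SE 0.10, adjusted p 4.21e-05 by edgeR), -1.62 in Dntt-gated (SE 0.09, adjusted p 2.15e-20 by edgeR) and -1.09 in granule-gated cells (SE 0.10, adjusted p 4.67e-14 by edgeR). Itga6 was lowest in Dntt-gated cells, below granule+Flt3-gated cells by 0.39 on the log2 scale (adjusted p 0.00804 by edgeR).

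Itgb1 (chromosome 8, 128685654 to 128733200, plus strand), the beta chain shared by many integrins, ran from 129 to 168 CPM in stem-gated and from 77.0 to 137 CPM in Dntt-gated cells. Each library was lower in its Dntt-gated cells, with a log2 fold change of -0.42 (SE 0.07, adjusted p 1.38e-06 by edgeR), a smaller step than that of Itga6. Granule-gated cells were lower by 0.25 on the log2 scale (SE 0.08, adjusted p 0.00363 by edgeR). In Flt3-gated cells the log2 fold change was -0.14 (adjusted p 0.285 by edgeR), with 5 of 7 libraries lower.

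Itgal (chromosome 7, 127296260 to 127335138, plus strand) encodes the alpha chain of LFA-1, which binds ICAM proteins on vessel walls and leukocytes. It spanned 8.16, 15.6 and 21.6 CPM in stem-gated cells, 19.1, 39.9 and 43.6 CPM in Flt3-gated cells and 33.8, 48.9 and 60.8 CPM in Dntt-gated cells. Each of the 7 libraries was higher at both steps, and the Dntt-gated values lay above all stem-gated ones. The log2 fold change from stem-gated cells was 1.19 in Flt3-gated (SE 0.14, adjusted p 3.03e-09 by edgeR) and 1.71 in Dntt-gated cells (SE 0.11, adjusted p 4.06e-19 by edgeR). Granule+Flt3-gated cells reached the level of Dntt-gated ones, 55.5 CPM at the median and 0.01 apart on the log2 scale (adjusted p 0.959 by edgeR). Granule-gated cells were 0.37 lower than granule+Flt3-gated ones (SE 0.12, adjusted p 0.0445 by edgeR). In stem+Flt3-gated cells the log2 fold change was 0.48 (SE 0.12, adjusted p 0.0146 by edgeR), a call lost without KO 1, KO 2, KO 3, WT 2 or WT 4, each left out alone (adjusted p 0.0516 to 0.131).

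Itga4 (chromosome 2, 79255426 to 79333123, plus strand) encodes the alpha chain of VLA-4, the VCAM-1 receptor by which stem cells lodge in marrow. It spanned 131, 198 and 278 CPM in stem-gated cells and 122, 165 and 360 CPM in Dntt-gated cells. The ranges overlapped throughout, and 3 of 7 libraries were higher in Dntt-gated cells, KO 1 to 3. By the test the log2 fold change was 0.01 (SE 0.13, adjusted p 0.965 by edgeR). In Flt3-gated cells it was -0.085 (SE 0.15, adjusted p 0.809 by edgeR), and it passed with gates that need 1 more marker or UMI (-0.22, adjusted p 0.00528 by edgeR) and with thinned cells (-0.24, adjusted p 0.0266 by edgeR). In granule-gated cells Itga4 was lower in 6 of 6 libraries, by 0.36 on the log2 scale (SE 0.12, adjusted p 0.00802 by edgeR).

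Cxcr4 (chromosome 1, 128588199 to 128592293, minus strand), the receptor of the chemokine CXCL12, spanned 15.9, 19.8 and 26.5 CPM in stem-gated and 34.8, 41.7 and 62.5 CPM in Dntt-gated cells. The groups did not overlap, and the log2 fold change was 1.02 (SE 0.11, adjusted p 3.55e-11 by edgeR). Granule-gated cells stood at 32.7, 45.5 and 54.1 CPM, a log2 fold change of 0.95 (SE 0.12, adjusted p 5.65e-10 by edgeR). Flt3-gated cells ranged from 13.2 to 46.7 CPM, on both sides of the stem-gated values, with a log2 fold change of 0.23 (SE 0.14, adjusted p 0.338 by edgeR). That sum held only 4 to 123 Cxcr4 UMIs per library, and the step passed under other settings: it was 0.38 with gates that need 1 more marker or UMI (adjusted p 0.0032 by edgeR) and 0.49 with cells thinned to 3000 UMIs before gating (adjusted p 0.0196 by edgeR). In the order of states, Dntt-gated, granule+Flt3-gated and granule-gated cells did not differ from each other by the test, and Flt3-gated cells stood 0.73 below granule-gated ones (adjusted p 4.18e-05 by edgeR).

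Selplg (chromosome 5, 113818536 to 113832644, minus strand) encodes PSGL-1, a mucin-like protein that binds selectins when its sugar chains are completed. It spanned 54.7, 68.8 and 134 CPM in stem-gated cells and 102, 142 and 238 CPM in Dntt-gated cells. Within each library the Dntt-gated cells were higher, while across libraries the ranges overlapped, with list B high in both states. The log2 fold change was 0.90 (SE 0.07, adjusted p 3.05e-16 by edgeR). In granule-gated cells it was 0.51 (SE 0.09, adjusted p 1.28e-06 by edgeR). In Flt3-gated cells it was 0.25 (SE 0.08, adjusted p 0.028 by edgeR), a call lost without KO 1, KO 2, KO 3 or WT 4, each left out alone (adjusted p 0.0524 to 0.219), and in list A alone (adjusted p 0.434).

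Cd44 (chromosome 2, 102811141 to 102901665, minus strand), the hyaluronan receptor, spanned 89.1, 187 and 250 CPM in stem-gated, 132, 247 and 420 CPM in Flt3-gated and 168, 327 and 408 CPM in Dntt-gated cells. Every library was higher in both states than in its stem-gated cells. The log2 fold change was 0.53 in Flt3-gated (SE 0.08, adjusted p 1.58e-06 by edgeR) and 0.75 in Dntt-gated cells (SE 0.07, adjusted p 3.54e-12 by edgeR). In granule-gated cells 3 of 6 libraries were higher and 3 lower (log2 fold change 0.06, adjusted p 0.562 by edgeR). Cd44 was 0.68 lower there than in Dntt-gated cells on the log2 scale (SE 0.09, adjusted p 1.98e-08 by edgeR), so it parted these progenitor states where Cxcr4 did not differ by the test.

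Over the added states, 7 of 8 genes passed between granule-gated and stem-gated cells (69.3% of the 12152 genes tested) and 2 of 8, Esam and Itgal, between stem+Flt3-gated and stem-gated cells (2.39%). In granule+Flt3-gated cells all 8 passed, beside 63.7% of all genes. There, Itgb1 (-0.20, adjusted p 0.0197 by edgeR), Itga4 (-0.35, adjusted p 0.00925 by edgeR) and Cd44 (0.28, adjusted p 0.00503 by edgeR) each lost the call under other settings or with single libraries left out. Between other pairs of states used above, the share of all genes called was 40.4% for granule+Flt3-gated against Dntt-gated cells, 53.6% for granule-gated against Dntt-gated, 56.8% for granule-gated against Flt3-gated, 5.97% for granule-gated against granule+Flt3-gated and 1.58% for Flt3-gated against stem+Flt3-gated cells. Depth differed between the states: the median cell of a library held 5105 to 8360 UMIs in stem-gated, 7967 to 11760 in Dntt-gated and 12571 to 23194 in granule-gated cells. With every cell thinned to 3000 UMIs before gating, Dntt-gated and granule-gated cells each held 7 of 8 genes past the threshold in the directions given, and Flt3-gated cells 7 in place of 5. Granule+Flt3-gated cells then held 6 of 8, without Itgb1 (adjusted p 0.932 by edgeR) and Cd44 (adjusted p 0.261 by edgeR). With thinning, more of all genes passed in Flt3-gated cells and far fewer in granule+Flt3-gated cells. The shares of all genes for thinned Dntt-gated and granule-gated cells are not given here, so these counts have no background beside them.

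Beside the 8 genes, 76 other genes of homing and adhesion, in 5 lists, were read in the same fits, where 44.3% of all genes passed between Dntt-gated and stem-gated cells. Of 11 other integrin subunits tested, 4 were higher and 5 lower in Dntt-gated than in stem-gated cells: Itgax, of dendritic cells and other leukocytes, rose by 3.54 on the log2 scale, while Itga2b, of megakaryocytes and stem cells, fell by 2.94 and Itga2, a collagen receptor, fell by 2.41. Of 12 genes that switch integrins on, 6 were higher and 4 lower, with Rasgrp2, which activates Rap1, at 1.08 (SE 0.07, adjusted p 7.70e-19 by edgeR). Rasgrp2 was also higher in Flt3-gated (0.58) and granule-gated cells (1.52). Of 12 selectins and enzymes of selectin ligands, 3 were higher and 5 lower: Selp, encoding P-selectin, was at -1.73 (adjusted p 4.93e-09 by edgeR) and Tpst2, a sulfotransferase that acts on PSGL-1, at -0.69. Of 14 chemoattractant genes, 5 were higher and 3 lower, among them the thymus-homing receptor Ccr9 at 4.24 (SE 0.30) and S1pr1, the receptor for sphingosine-1-phosphate, at -2.20 (SE 0.25). Of 19 junction and sialomucin genes, 5 were higher and 9 lower, with Pecam1 at 1.13 and the tetraspanin genes Cd63 and Cd9 at -2.49 and -1.81.

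Dividing stem-gated cells differed from the others in 4 of the 8 genes. That count is near the share of all genes, 47.6% of 10123, so it does not set the 8 apart. Cells with at least 3 of 16 mitotic genes (1198 cells) were compared with those that had at most 1 (4093 cells), within each library. Cxcr4 was higher in the mitotic cells: it stood at 19.9, 17.7, 39.7, 36.6, 25.6, 23.2 and 40.6 CPM in KO 1 to 3 and WT 1 to 4, and at 21.1, 14.6, 18.9, 20.8, 18.9, 15.2 and 21.9 CPM in the others. KO 1 alone was not higher, and the log2 fold change was 0.74 (SE 0.12, adjusted p 2.25e-07 by edgeR). Esam was lower in all 7 libraries, at 24.7 to 76.5 CPM in the non-mitotic and 15.95 to 50.1 CPM in the mitotic cells (log2 fold change -0.61, SE 0.10, adjusted p 5.96e-07 by edgeR). Itga6 was also lower in all 7 (-0.29, SE 0.08, adjusted p 0.00109 by edgeR). Selplg was higher in all 7 (0.18, SE 0.07, adjusted p 0.0447 by edgeR), a call lost without KO 2, WT 1, WT 2 or WT 4, each left out alone (adjusted p 0.0558 to 0.141), and with DESeq2 (adjusted p 0.109). Itga4, Itgb1, Itgal and Cd44 did not pass. Mitotic cells were deeper, with library medians of 8286 to 14671 UMIs against 4410 to 7166, and the part of depth in these differences was not tested.

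**Figure D2:**
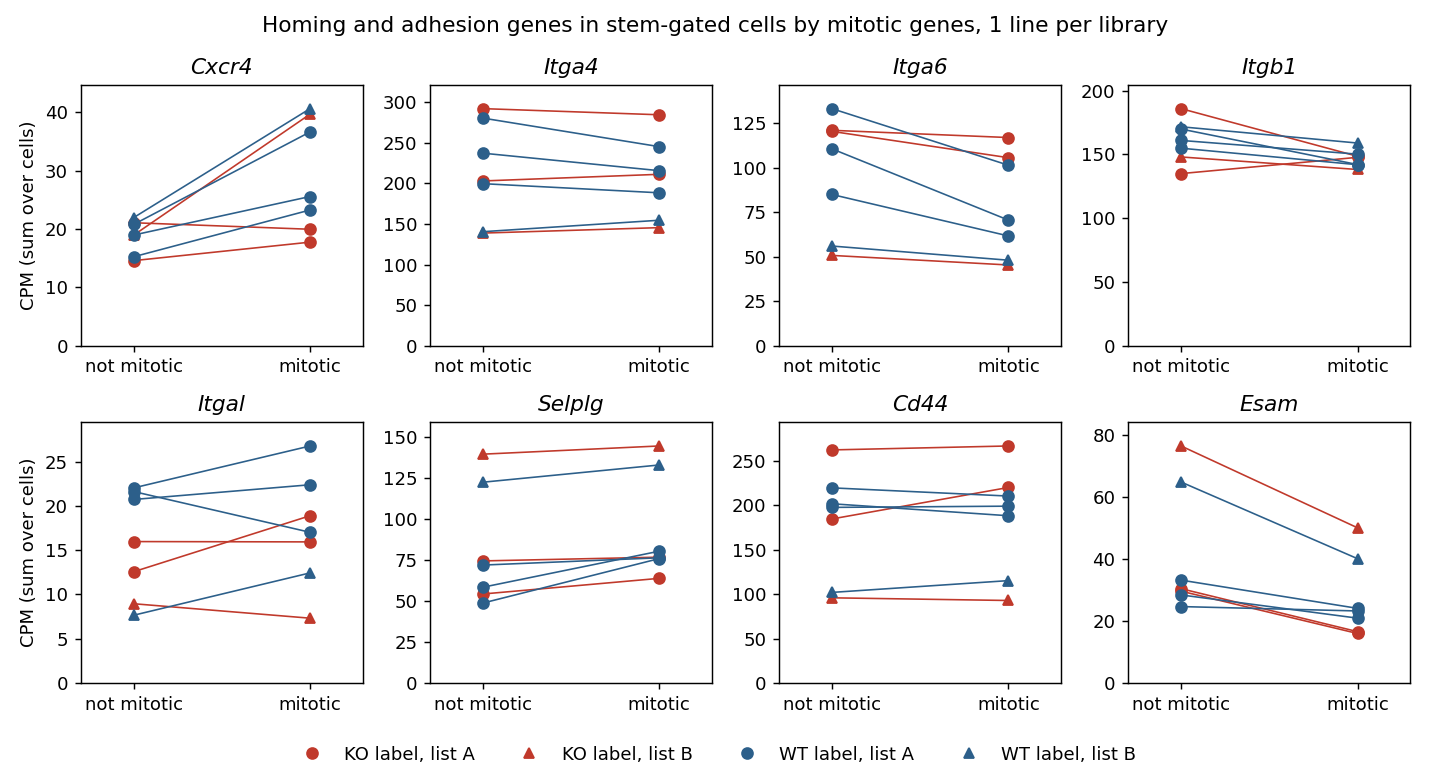
CPM of each gene (y axis, from 0) in stem-gated cells with at most 1 and with at least 3 mitotic genes (x axis), 1 line per library, coloured by label and shaped by barcode list. Lines rise for Cxcr4 in 6 of 7 libraries and fall for Esam and Itga6 in 7 of 7.

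Between the labels, none of the 8 genes passed the test over all kept cells, with the barcode list as a covariate, where 1.11% of 14608 genes did. At an unadjusted p below 0.05 there were 2792 genes, Cxcr4 alone among the 8, and DESeq2 also called none of the 8. Cxcr4 was at 30.7, 36.9 and 42.9 CPM in the libraries labelled KO (36.8 ± 6.10, SD, n = 3) and at 32.4, 25.9, 26.0 and 33.2 CPM in those labelled WT (29.4 ± 3.97, SD, n = 4). These overlapped, with a log2 fold change of 0.30 (SE 0.13, adjusted p 0.252 by edgeR). Selplg was at 96.3, 93.9 and 169 CPM against 79.1, 72.5, 84.6 and 147 CPM. Its KO values lay above the WT values in each list taken alone, and overlapped when the lists were joined (log2 fold change 0.25, SE 0.12, adjusted p 0.290 by edgeR). Itgal was at 39.8, 48.6 and 19.4 CPM against 39.4, 32.0, 30.3 and 19.5 CPM, with a log2 fold change of 0.27 (SE 0.14, adjusted p 0.338 by edgeR). Its difference stood in list A, since both libraries of list B were alike. Itga4, Itga6, Itgb1 and Cd44 had log2 fold changes from -0.08 (Cd44) to 0.11 (Itga6), each within 1 SE of 0. The median over the 8 genes was 0.03, beside 0.01 over all genes tested.

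**Figure D3:**
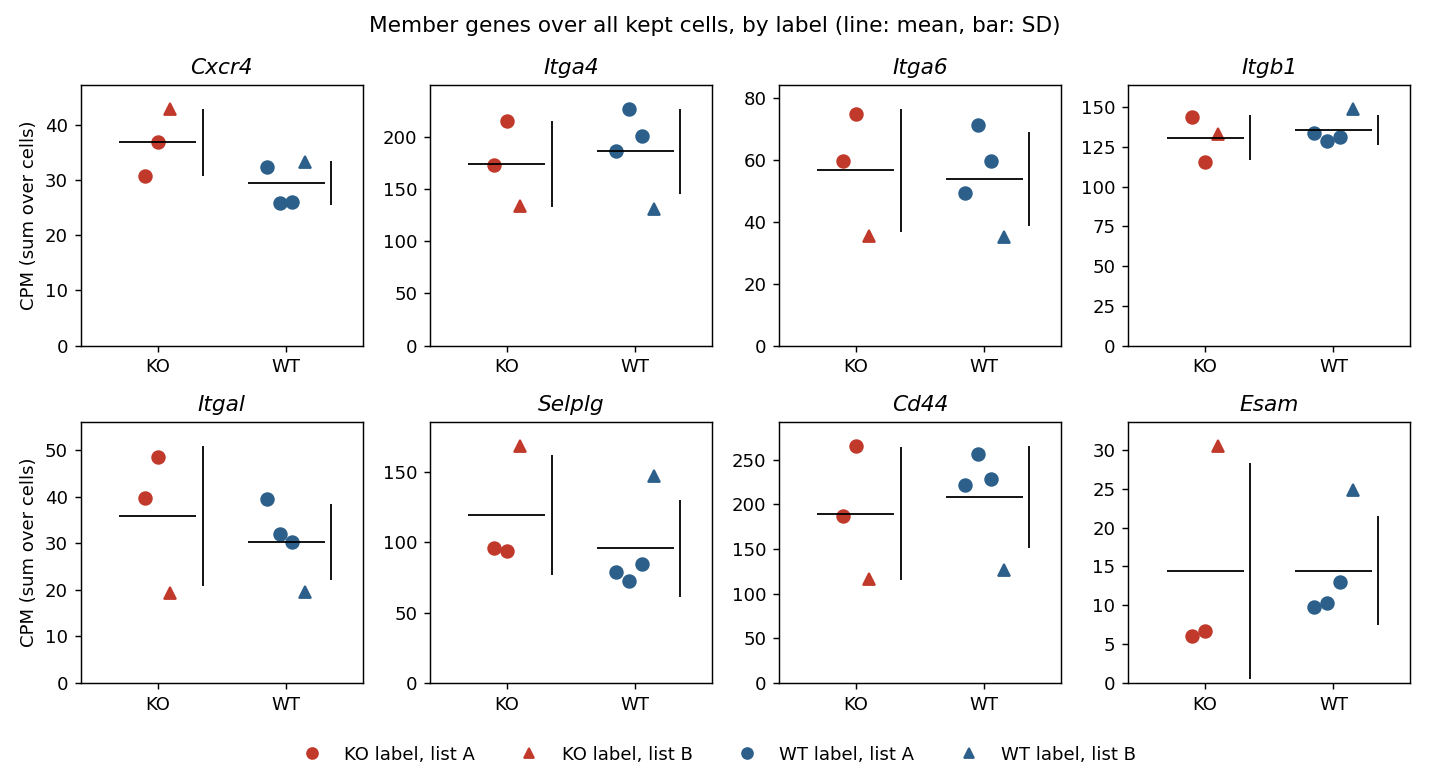
CPM of each gene over all kept cells (y axis, from 0) by label (x axis), 1 point per library, shaped by barcode list, with a line at the mean and a bar for the SD. Points of the 2 labels overlap in all 8 panels, and the triangles of list B are apart from the circles in 6.

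Esam went in opposite directions in the lists. It was at 6.03, 6.70 and 30.5 CPM in the libraries labelled KO and at 9.79, 10.3, 13.01 and 24.8 CPM in those labelled WT. Within list A the KO values were lower (log2 fold change -0.82, SE 0.22, adjusted p 0.0855 by edgeR), and within list B KO 3 was above WT 4 by 0.30 on the log2 scale, with 1 library per label. The joint log2 fold change was -0.44 (SE 0.22, adjusted p 0.306 by edgeR). Cells that met the granule gate, which hold little Esam, took different shares: granule-gated cells made up 7.72% to 17.9% of the cells labelled KO and 1.27% to 4.10% of those labelled WT, and stem-gated cells 18.9% to 25.5% and 23.0% to 33.4%. Cells that met no granule gate were 47.1% to 68.2% and 81.8% to 88.5%. The 5 genes of the granule gate summed to 2487 to 10837 CPM in libraries labelled KO and to 718 to 1999 CPM in those labelled WT. Without the cells that met the granule gate the log2 fold change of Esam was 0.44 (SE 0.13, adjusted p 0.358 by edgeR), the opposite sign, and those of Cxcr4 and Itgal were -0.05 and -0.14. That of Selplg was then 0.046 in place of 0.25, and that of Itga6 0.38 in place of 0.11 (unadjusted p 0.0251, adjusted p 0.586 by edgeR). The part of these shares in the label differences was not tested further. Within stem-gated cells Esam differed by 0.07 (SE 0.16, adjusted p 0.999 by edgeR), at 25.1, 25.2 and 66.6 CPM against 23.1, 23.7, 29.5 and 56.3 CPM.

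Within states, the label test called none of the 8 genes. The share of all genes called was 0.0578% in stem-gated, 0.0578% in Flt3-gated, 0.132% in Dntt-gated, 0.0961% in stem+Flt3-gated, 0.0284% in granule+Flt3-gated and 0% in granule-gated cells, where 233 genes had an unadjusted p below 0.05 and DESeq2 called 4. Esam passed the filter on low counts only in stem-gated and stem+Flt3-gated cells, so 7 genes were tested in the other 4 states. In stem-gated cells the log2 fold changes ran from -0.27 (Itgal) to 0.12 (Itga6), in Flt3-gated cells from -0.19 (Itgal) to 0.39 (Selplg). They ran from -0.15 (Itgb1) to 0.36 (Esam) in stem+Flt3-gated, from -0.22 (Itgal) to 0.25 (Selplg) in granule+Flt3-gated and from -0.16 (Cxcr4) to 0.39 (Itga6) in granule-gated cells. The smallest adjusted p among these 5 states was 0.909.

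The widest label difference was that of Itga4 in Dntt-gated cells. Its level there was 332, 358 and 144 CPM in the libraries labelled KO and 162, 164, 197 and 122 CPM in those labelled WT. KO 1 and KO 2 stood above all others, and KO 3 was above WT 4 but below the WT libraries of list A. The log2 fold change was 0.74 (SE 0.16, adjusted p 0.0918 by edgeR), past the threshold with DESeq2 (adjusted p 0.0202) and with no gene filter (adjusted p 0.00583). With gates that need 1 more marker it was 0.32 (adjusted p 0.692). The step of Itga4 from stem-gated to Dntt-gated cells differed between the labels by 0.67 on the log2 scale (SE 0.15, adjusted p 0.0738 by edgeR for the interaction, where 0.0489% of genes passed). That interaction passed without KO 2 (adjusted p 0.0187), without KO 3 (adjusted p 0.0106) and with no gene filter (adjusted p 0.000945), while DESeq2 gave 0.467. Dntt-gated cells made up 2.90% to 6.80% of the cells labelled KO and 6.40% to 12.5% of those labelled WT. The other 7 genes did not pass in that interaction, nor did any of the 8 in the one between Flt3-gated and stem-gated cells, where 0.00815% of genes passed.

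**Figure D4:**
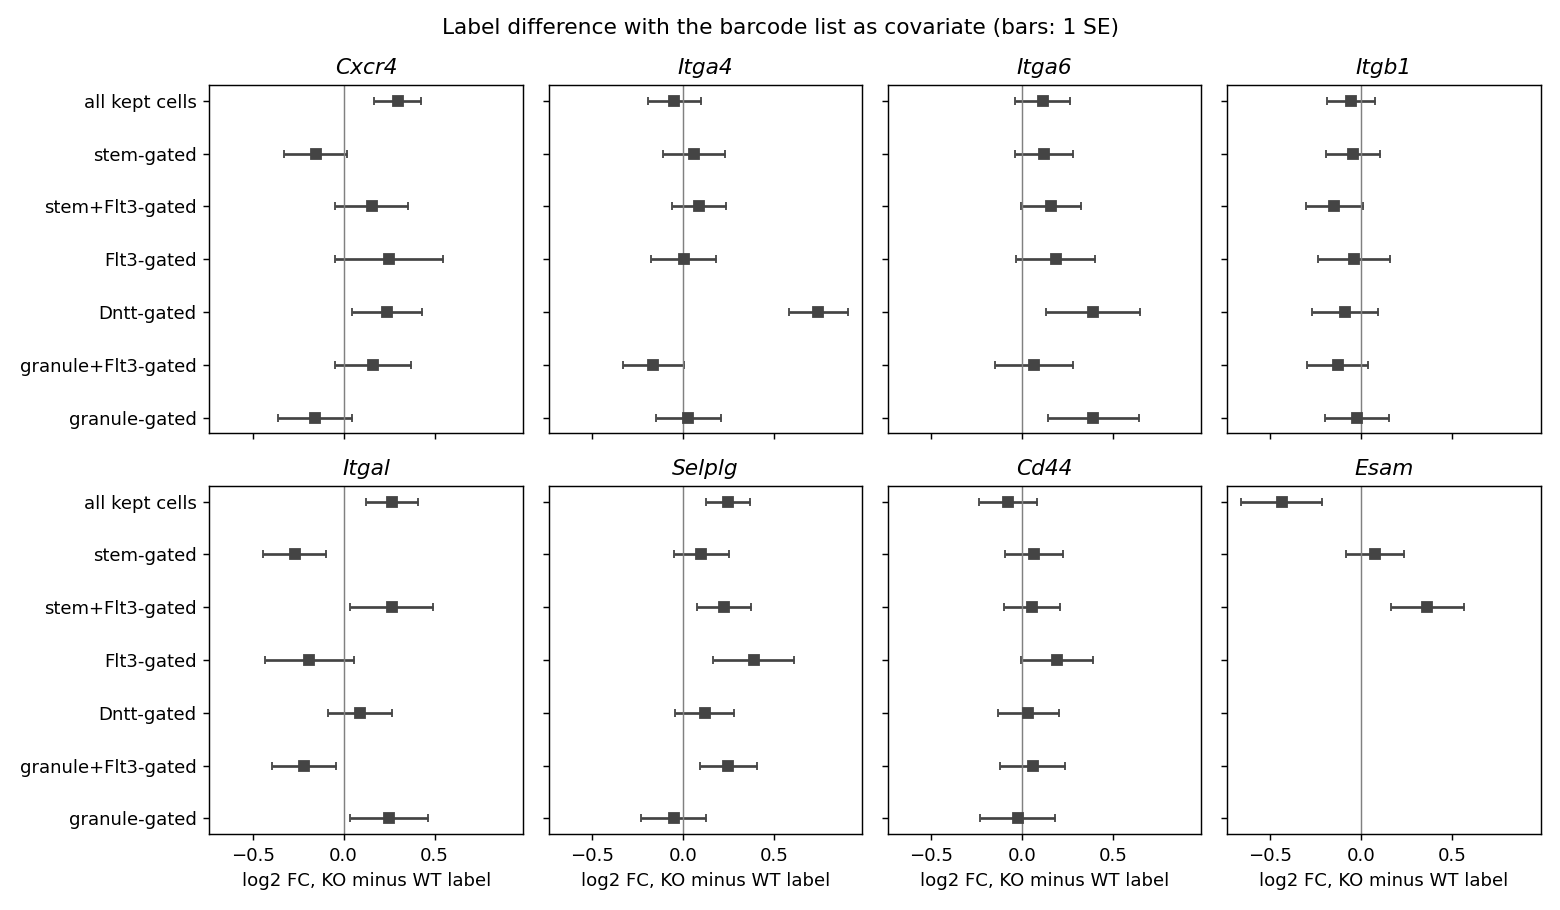
Log2 fold change between labels (x axis, KO minus WT, barcode list as covariate, bars of 1 SE) for each gene over all kept cells and in 6 states (y axis). None passed the test, and Itga4 in Dntt-gated cells lies farthest from 0, at 0.74; Esam was not tested in 4 states.

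Some partners of these receptors differed between the labels. Selp, encoding P-selectin, a ligand of PSGL-1 that platelets, endothelium and some stem cells make, was at 24.3, 25.9 and 16.2 CPM in the libraries labelled KO and at 9.79, 10.4, 5.84 and 5.59 CPM in those labelled WT. Every KO library lay above every WT library, with a log2 fold change of 1.54 (SE 0.18, adjusted p 0.0115 by edgeR). It passed in each fit with 1 library left out. The call was lost without the list covariate (adjusted p 0.675 by edgeR). It was also lost with a block for the replicate number in place of the list (1.37, adjusted p 0.129 by edgeR). In stem-gated cells Selp stood at 34.7, 38.1 and 10.5 CPM against 13.9, 18.2, 9.50 and 5.45 CPM, overlapping across lists. The log2 fold change there was 1.26 (SE 0.20, adjusted p 0.0416 by edgeR), a call lost in list A alone and without any single library other than WT 2. In stem+Flt3-gated cells it was 1.64 (SE 0.29, adjusted p 0.0283 by edgeR), a call lost without KO 1, KO 3, WT 1 or WT 4, each left out alone (adjusted p 0.0533 to 0.290), and in list A alone (adjusted p 0.0608). St3gal6, a sialyltransferase of selectin ligands, was lower over all kept cells (-1.05, adjusted p 0.0391 by edgeR). That call was lost in list A alone (adjusted p 0.0599), without the cells that met the granule gate (adjusted p 0.985) and in 6 of 7 fits with 1 library left out. With those cells left out the log2 fold change of St3gal6 was -0.32, and that of Selp 1.75 (adjusted p 0.00747). Ccr9 (-2.61, adjusted p 0.0308 by edgeR) and Itgb5 (-1.03, adjusted p 0.0449 by edgeR) were lower, at most 1.27 against at least 2.98 CPM and at most 9.36 against at least 10.7 CPM. Itgb5 lost the call in 5 of 7 fits with 1 library left out and Ccr9 in 3, and Ccr9 also without the cells that met the granule gate (adjusted p 0.206). With the replicate block St3gal6, Ccr9 and Itgb5 all lost the call (adjusted p 0.630, 0.178 and 0.174 by edgeR). Ccr9 was far higher in Dntt-gated than in stem-gated cells, as given above. Dntt-gated cells made up 2.90% to 6.80% of the cells labelled KO and 6.40% to 12.5% of those labelled WT. The part of this share in the Ccr9 difference was not tested. Over the lists, 3 of 12 selectin genes, 1 of 13 integrin subunits, 1 of 16 chemoattractant genes, 0 of 12 integrin activators and 0 of 22 junction genes passed. Beside these counts, 1.11% of all 14608 genes tested passed. Without the list covariate 0 genes passed.

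The barcode list parted the members more than the label did. In stem-gated cells Selplg was at 119 to 134 CPM in list B and at 54.7 to 75.1 CPM in list A, and Esam at 53.5 to 62.9 against 22.5 to 28.7 CPM. The other direction held for Itga4 (131 to 136 against 198 to 278 CPM), Itga6 (47.1 to 50.5 against 74.9 to 113 CPM), Itgal (8.16 to 8.83 against 15.2 to 21.6 CPM) and Cd44 (89.1 to 99.8 against 183 to 250 CPM). Cxcr4 and Itgb1 overlapped between the lists. These are descriptions: the list was read from the data, each list holds both labels, and the state comparisons are made within libraries.

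Megakaryocyte-gated and erythroid-gated cells were numerous enough to describe only in list B, 1 library per label, so no test was made. CPM without normalization factors is given with exact 95% Poisson intervals, which cover counting error only. Itga6 stood at 76.8 CPM (54.0 to 106) in the 40 megakaryocyte-gated cells of KO 3 and at 42.3 CPM (38.9 to 45.8) in its stem-gated cells. In the 17 megakaryocyte-gated cells of WT 4 it stood at 32.0 CPM (11.7 to 69.7), from 6 UMIs. The stem-gated cells of WT 4 stood at 44.3 CPM (41.1 to 47.7). The megakaryocyte-gated interval of WT 4 overlaps this one and that of KO 3, so 6 UMIs cannot tell the libraries apart. In cells that met only the stem and megakaryocyte gates, Itga6 stood at 66.5 CPM (55.4 to 79.1) in KO 3. In such cells of WT 4 it stood at 53.6 CPM (40.8 to 69.2), from 59 UMIs. Each value lay above that of the library's stem-gated cells, though in WT 4 the intervals overlap. Esam was at 53.9 CPM (35.2 to 79.0) in megakaryocyte-gated and 56.4 CPM (52.5 to 60.5) in stem-gated cells of KO 3, intervals that overlap. In the 58 erythroid-gated cells of KO 3 Esam was below both, at 8.89 CPM (3.57 to 18.3), and in the 101 of WT 4 it was at 1.46 CPM (0.302 to 4.28). Selplg was lower in both: 82.5 CPM (63.7 to 105) and 47.3 CPM (38.4 to 57.7) in erythroid-gated cells, against 120 CPM (114 to 126) and 104 CPM (99.2 to 109) in stem-gated cells.

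Across the 21 sums of stem-gated, Flt3-gated and Dntt-gated cells, centred within library, 7 of the 8 genes fell along 1 axis. Esam correlated with Itgb1 at r = 0.78 and with Itga6 at 0.75, and with Cd44 at -0.90 and Itgal at -0.84. Itgal and Cd44 correlated at 0.90, Cxcr4 and Selplg at 0.78. Itga4 stood apart, with r from -0.23 (Cxcr4) to 0.38 (Esam). The points share libraries, depth and the 3 states, so these values describe the states and carry no p. By the same measure over 7200 genes with a mean of at least 20 CPM, the genes most like Itga6 were Cd63 (0.97), Scarf1 (0.97) and Adgrg1 (0.97), and those most like Itgb1 included Kit (0.95) and Gmpr (0.95). Esam was most like Pced1b (0.94), Ttc28 (0.94) and Treml2 (0.92). Itgal was most like Atp8b4 (0.99), Lat2 (0.99) and BC035044 (0.99), Selplg like Cnn3, Il7r and Ywhae (0.95 each) and Cd44 like Pan3 (0.95), Mir142hg (0.95) and Frmd6 (0.93). Cxcr4 was most like Desi1, Glis3 and Itpr1 (0.92 each), and Itga4 like Twf1 (0.83), Sbno1 (0.81) and Yipf3 (0.81).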

How the data were processed

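Single-cell UMI counts per gene and barcode were deposited by the authors for 7 libraries of sorted LSK cells, as whole-number counts with no normalization. Per the labels' protocols the kit was a 10X Genomics single cell 3′ kit, and per the submitters' processing notes the tools included Cell Ranger 7.0.0 and Seurat 4.4.0, with the genome build mm10. Their settings are not given in the sources used here. The 8 genes and all lists were chosen with earlier results of these data known.

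Barcodes with at least 1000 UMIs, at least 500 genes and at most 10% mitochondrial UMIs were kept. Doublets were not called, and cells over 3 times their library's median UMI count were left out in an alternative. Cells were put into states by marker gates, and 39.2% to 47.1% of a library's kept cells met several gates. The barcode list was read from the first 6 bases of the barcodes. UMI counts were summed per library, or per library and state with at least 20 cells, and tested with edgeR 4.0.16 (quasi-likelihood, TMM, filterByExpr, R 4.3.3, limma 3.58.1), two-sided, with Benjamini-Hochberg adjustment over all genes tested and a threshold of 0.05. Label fits had the barcode list as a covariate, and state and mitotic fits the library as a block. CPM values carry TMM factors unless stated. Levels by state come from a fit of 6 states. Fold changes of Flt3-gated and Dntt-gated cells come from a fit of 3 states, and the other states and the fits without granule-gated cells were added after seeing the data. The fits were also run on simulated data, but the settings and outcome of that run are not given here. It therefore cannot show the power or error rate of the fits at the fold changes reported.

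Of each partner list, up to 3 called genes with the smallest p per comparison were open to naming, and for each of the 8 genes the 3 most alike by Pearson correlation. Alternatives were DESeq2 1.42.0, no gene filter, no TMM, stricter cells or gates, thinning to 3000 UMIs, no list covariate, list A alone, a replicate block and each library left out. Other steps used Python 3.11.15, numpy 2.4.6, scipy 1.17.1 and pandas 2.3.3. Gene coordinates are on GRCm38. Protein sequences were not used here. A few genes that these rules name are not reported here.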

Additional observations from a re-analysis of the deposited data

Results flagged for a closer look

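Among the 4 libraries labelled WT, 1 library stood apart from the others by a gap of most of the group's range in 5 of 48 combinations of gene and cell set, where chance gives about 1 in 20. Each time it was WT 4, the only library labelled WT in barcode list B. The 48 combinations share the same 4 libraries and are not independent, so setting 5 of 48 beside 1 in 20 is not a test. Selplg over all kept cells was at 147 CPM in WT 4 and at most 84.6 CPM in the other WT libraries. Selplg in stem+Flt3-gated cells was at 137 CPM against at most 70.0 CPM. Itgal in Flt3-gated cells was at 22.8 CPM against at least 39.9 CPM. Cd44 in stem-gated cells was at 99.8 CPM against at least 187 CPM. Esam in stem+Flt3-gated cells was at 29.0 CPM against at most 15.2 CPM.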

How the results depend on the processing

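No label comparison called any of the 8 genes under any alternative, except Itga4 in Dntt-gated cells. There DESeq2 and the fit with no gene filter each called 1 gene of the 8. The interaction fit called 1 with no gene filter, without KO 2 and without KO 3. The count of genes called between the labels was less stable. Over all kept cells it was 162, and 0 with no list covariate, 362 in list A alone, 856 with DESeq2, 547 with no gene filter, 90 with thinned cells and 37 without cells that met the granule gate. In stem-gated cells it was 7, and in the same order 0, 11, 22, 111 and 4, with 4 under stricter gates. In Flt3-gated cells it was 5, and 0, 12, 9 and 49, with 12 under stricter cell filters and 55 under stricter gates. In Dntt-gated cells it was 13, and 0, 7, 21, 72 and 7, with 6 and 40 under the stricter cells and gates. In stem+Flt3-gated cells it was 11, and 0, 33, 24, 108 and 18, with 19 and 18. In granule+Flt3-gated cells it was 3, and 0, 17, 18 and 101, with 20 under stricter cells. In granule-gated cells it was 0, and 3 in list A, 4 with DESeq2, 17 with no gene filter and 1 with thinned cells. Interaction calls were 6 for Dntt-gated cells (DESeq2 2, no gene filter 44) and 1 for Flt3-gated cells (0 and 3).

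Between states, Flt3-gated against stem-gated cells gave 1440 genes, and 3930 with stricter gates, 2260 with thinned gates and 675 in list A alone. Stem+Flt3-gated cells gave 291 genes and 2 of the 8, and 460 and 4 with stricter gates, 178 with thinned gates, 185 and 1 with DESeq2, 600 with no gene filter, 109 and 1 in list A alone. Granule+Flt3-gated cells gave 7743, and 2195 with thinned gates. Log2 fold changes of the 8 genes that turned sign were not called, and they were small apart from that of Esam over all kept cells. Over all kept cells, without the cells that met the granule gate, Esam became 0.44, Cxcr4 -0.046, Itga4 0.11, Itgb1 0.0064 and Itgal -0.14, and with thinned cells Itga4 became 0.0021. In list A alone Esam in stem-gated cells became -0.022 and Itgb1 in Dntt-gated cells 0.069. Stricter gates gave Itgal 0.18 in Flt3-gated cells, and thinned cells gave Itgal 0.091 and Selplg -0.056 in granule+Flt3-gated and Cxcr4 0.054 in granule-gated cells. For Itga4 in Dntt-gated against stem-gated cells the values were -0.063 with stricter gates, -0.092 with thinned gates, -0.0020 with no gene filter, -0.064 without TMM and -0.0049 in list A alone. For Cd44 in granule-gated against stem-gated cells they were -0.043 with thinned gates, -0.11 without TMM and -0.11 in list A alone. The cause of these changes was not tested.

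With each library left out in turn, the genes called between labels ranged from 16 to 349 over all kept cells, 1 to 10 in stem-gated, 3 to 25 in Flt3-gated, 5 to 16 in Dntt-gated, 2 to 36 in stem+Flt3-gated, 4 to 58 in granule+Flt3-gated and 0 to 7 in granule-gated cells. State calls ranged from 806 to 1386 for Flt3-gated and from 119 to 397 for stem+Flt3-gated cells, with 1 to 2 of the 8 genes in the latter. Interaction calls ranged from 0 to 3 for Flt3-gated and from 1 to 27 for Dntt-gated cells, with 0 to 1 of the 8. Between labels over all kept cells Itga4 ranged from -0.12 to 0.041, Itgb1 from -0.19 to 0.025 and Cd44 from -0.24 to 0.044. Esam in stem-gated cells ranged from -0.027 to 0.16 and Itgb1 in Dntt-gated cells from -0.33 to 0.068. Itga4 ranged from -0.10 to 0.095 between Dntt-gated and stem-gated cells and from -0.050 to 0.016 between mitotic and other cells.

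Whether the replicate numbers pair the libraries was not settled. In their deviations from the label means, same-numbered libraries correlated at 0.53, 0.72 and -0.36. For KO 1 and KO 2 the same-numbered WT library was the closest, the next reaching 0.33 and 0.50. KO 3 and WT 3 are of different barcode lists, and KO 3 correlated with WT 4 of its own list at 0.89. The deviations were not adjusted for the list, so this check cannot exclude pairing. With the replicate block in place of the list, label calls were 1 over all kept cells, 1 in stem-gated, 8 in Flt3-gated, 11 in granule+Flt3-gated and 65 in granule-gated cells. Under this block Itga6 became -0.14 and Itgal -0.011 over all kept cells, Itga6 -0.16 in stem-gated and Itgb1 0.086 in Dntt-gated cells. Depth limits Esam outside stem-gated cells most, with 71 UMIs in all Dntt-gated cells.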
